A study of Drosophila melanogaster with 48 samples.

Results

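The late stage 5 transcriptome of ZI050, an isofemale line of Drosophila melanogaster from Siavonga in Zambia, was compared with those of the Zambia lines ZI094, ZI160 and ZI470 at the same stage. ZI050 was represented by 3 of the 48 single embryos of the series, its columns in the count table being chosen by line and stage, and the other lines by 9 embryos, 3 per line. All Zambia lines had been inbred for at least 5 generations, the flies were reared at 25 °C, the mothers were 3 to 10 days old, and the labels give the stage 5 embryos as XY. Stage 2 embryos of the same 4 Zambia lines (3 of ZI050 and 9 of the others, sex unknown) and 12 stage 5 embryos of 4 Raleigh lines from North America are given for comparison. No line carried a treatment or a transgene. Since ZI050 is 1 line, the p-values of the fits with a term for line measure the spread between embryos within lines. A difference belongs to this inbred line, not to a group of lines.

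The early embryo of Drosophila runs first on RNA loaded into the egg by the mother. During the maternal to zygotic transition many of these RNAs are degraded while the genome of the zygote is switched on. Late stage 5 is the end of the blastoderm, when cells have formed around the nuclei and the patterning genes are transcribed, so the RNA of such an embryo is a mixture of maternal RNA that is left and new zygotic RNA. The amount per cell and the number of cells that hold a transcript cannot be told apart in whole embryos.

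The ZI050 embryos had 28097997 to 30140443 counts, and the other Zambia embryos 26388365 to 30783589. A floor of 3 counts is 0.107 CPM in the median library (CPM, here the counts of each embryo after edgeR's TMM scaling to an equal library size), and levels below it are not told from 0. The total, the genes counted, the share of counts on the X chromosome and the shares of mitochondrial and ribosomal RNA did not pass in exact permutation tests of 3 against 9 embryos (two-sided p = 0.191 to 0.927, smallest possible 0.00909). The 9 embryos come from 3 lines, so these tests mix the spread between lines with that within lines. The markers fixed for stage 5 were ftz, eve, sna, twi, zen and nullo. Of these only zen passed the test described below. It was higher in ZI050, with 49.0 to 60.0 CPM, against 25.6 to 41.8 CPM in the other lines (log2 difference 0.73). ftz, a pair-rule gene, had 406, 395 and 413 CPM in ZI050, against 366 to 445 CPM in the other lines. sna, the mesoderm determinant, had 192, 244 and 223 CPM in ZI050, against 157 to 250 CPM. The eggshell gene Cp36 was at 0 in all 12 embryos, and bcd, a maternal RNA, was down to 2.90 to 3.51 CPM in ZI050 and 1.48 to 4.13 CPM in the others. nullo, a cellularization gene fixed as a stage 5 marker, was low in all lines, with 0.389 to 0.475 CPM in ZI050 and 0.293 to 1.16 CPM in the others.

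Of 9371 genes tested, 1202 (12.8%) were higher and 1022 (10.9%) lower in ZI050 than the mean of the other 3 lines, 2224 (23.7%) in all (edgeR quasi-likelihood F-test, Benjamini-Hochberg adjusted p under 0.01, which is the meaning of "called" below). A gene that is extreme in another line can pass this contrast. Therefore a gene was counted as set apart when ZI050 differed from each of ZI094, ZI160 and ZI470 in the same direction, each at an adjusted p under 0.01. There were 501 such genes (5.35%), of which 254 were higher (2.71%) and 247 lower (2.64%) in ZI050. By the same rule 451 genes were set apart in ZI094, 496 in ZI160 and 470 in ZI470, so ZI050 had the most of the 4 lines by a small margin that 4 lines cannot test. The median size of the difference was 1.17 on the log2 scale in ZI050, against 1.02 in ZI094, 1.25 in ZI160 and 1.00 in ZI470. Among the set-apart genes 76 were at least 4-fold higher and 60 at least 4-fold lower in ZI050.

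The counts depend on having 3 embryos of ZI050. Without ZI050 replicate 1, 2 or 3 the called genes numbered 1297, 1373 and 1381, and the set-apart genes 283, 315 and 314. With the 9 other embryos taken as a single group without a term for line, 462 genes were called. In that fit, which adds the differences among the other lines to the spread, 18 of the named genes below were no longer called: gammaTub37C, CG3603, CG3397, Sodh2, CG5937, CG8066, teq, gcm, tld, Tollo, alphaTub84B, Cyp6a13, Cyp12d1-d, mRpL30, mRpL12, AsnRS, RpS9 and His1:CG33807.

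The 12 genes with the largest differences in each direction, among set-apart genes of at least 5 CPM whose groups do not overlap, are described first. The plot of the genes highest in ZI050 shows the value of each embryo.

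**Figure D1:**
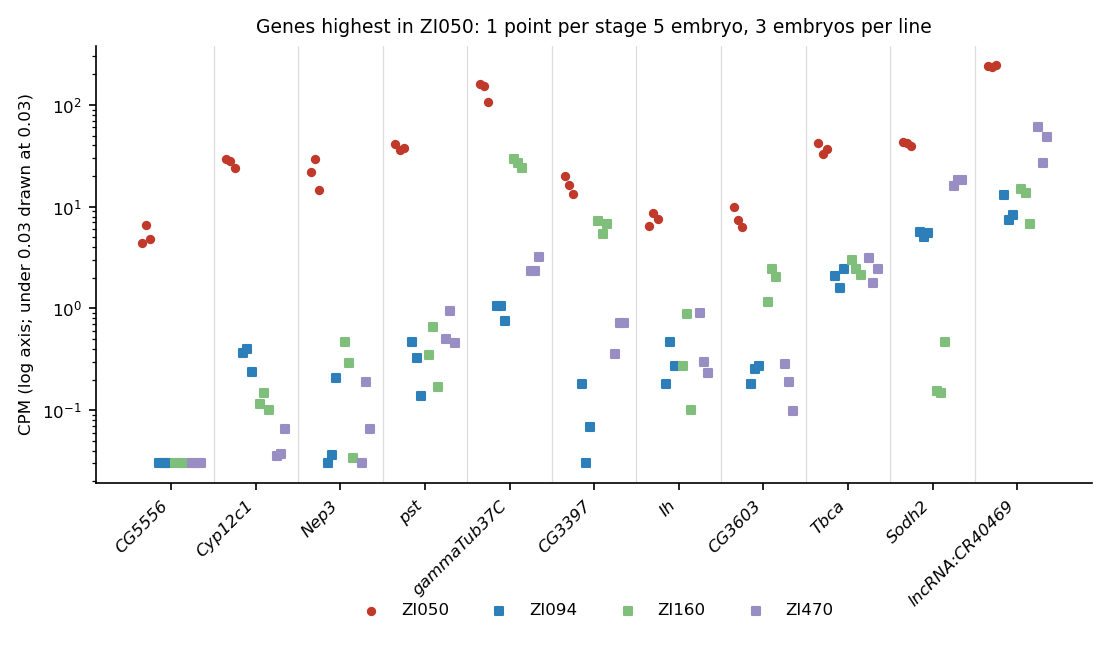
CPM (log axis) of 11 of the 12 genes with the largest differences above the other Zambia lines, with 1 point per stage 5 embryo and 3 embryos in each of ZI050 (red circles), ZI094, ZI160 and ZI470 (squares). The ZI050 points lie above all others for each gene by the rule that chose them, and for gammaTub37C and CG3397 the ZI160 embryos come next.

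Cyp12c1, a cytochrome P450 of the mitochondrial class, had 29.5, 28.0 and 24.2 CPM in the ZI050 embryos, against 0.0357 to 0.397 CPM (median 0.116) in the other Zambia embryos. It was thus near the floor in each other line and well above it in ZI050, with a log2 difference of 7.72 ± 0.14 (SE; adjusted p = 2.3e-12 by edgeR's test). The other Zambia embryos held 42 counts in all, and this SE, derived from the F statistic, need not cover their counting error. The 4 Raleigh lines had 0 to 0.0323 CPM. The gene was also called higher at stage 2, where the other lines averaged 0.0810 CPM and the log2 difference was 7.67.

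Nep3, a membrane metallopeptidase of the neprilysin family, had 22.0, 29.2 and 14.4 CPM in ZI050, against 0 to 0.465 CPM (median 0.0656). The log2 difference was 7.45 ± 0.40 (adjusted p = 3.8e-08, edgeR) and 8.70 at stage 2, where ZI050 averaged 26.2 CPM and the other lines 0.0640 CPM. pst, known for its effect on resistance to viruses, had 41.5, 36.3 and 37.3 CPM in ZI050, against 0.137 to 0.938 CPM (median 0.459). Its log2 difference was 6.49 ± 0.22 at stage 5 and 6.97 at stage 2. The highest mean of a Raleigh line was 27.5 CPM for pst. Nep3 stayed at or below 0.487 CPM in the Raleigh lines.

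gammaTub37C encodes the maternal form of gamma-tubulin, which nucleates microtubules in the egg and the early divisions. It had 161, 153 and 106 CPM in ZI050. The other lines averaged 0.951 CPM (ZI094), 26.7 CPM (ZI160) and 2.61 CPM (ZI470), so that all 3 ZI050 embryos were above the highest of ZI160, 29.3 CPM. The log2 difference was 5.11 ± 0.13 (adjusted p = 3.32e-11, edgeR), and 3.79 (adjusted p = 0.0206) with the other lines as 1 group, the only alternative of those that kept embryos apart in which gammaTub37C was not called. At stage 2 the same RNA was abundant in all lines, with 198 CPM in ZI050 and 141 CPM in the others, and was not called (log2 difference 0.50, adjusted p = 0.0138).

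Tbca, which encodes a tubulin folding cofactor, had 41.9, 33.1 and 37.1 CPM in ZI050, against 1.59 to 3.14 CPM (median 2.45) in the other lines. The ZI050 mean was 16.0 times that of the others (adjusted p = 1.22e-09, edgeR). The RNA was not called at stage 2, where Tbca averaged 67.1 CPM in ZI050 and 69.8 CPM in the others (adjusted p = 0.881, edgeR).

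Sodh2, a sorbitol dehydrogenase, had 42.8, 41.8 and 39.5 CPM in ZI050 and 0.146 to 18.4 CPM (median 5.55) in the other lines, which themselves were spread from ZI160 (lowest) to ZI470 (highest). Ih, a hyperpolarization-activated ion channel gene, had 6.51, 8.63 and 7.63 CPM in ZI050 and 0.101 to 0.892 CPM in the others. CG3603 had 9.93, 7.39 and 6.29 CPM in ZI050 and 0.0984 to 2.45 CPM in the others. These genes were low or moderate in each other line and higher in ZI050. The long noncoding RNA lncRNA:CR40469 had 242, 233 and 244 CPM in ZI050 and 6.72 to 60.3 CPM in the other Zambia lines, while the Raleigh lines averaged 116 to 209 CPM, so the other Zambia lines were the low ones for this RNA. CG5556 and CG3397, also among the 12, lie in runs of neighbouring genes described below.

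Several abundant genes stood just outside these 12 and were chosen after their values were seen. RnrL, the large subunit of ribonucleotide reductase, which makes the precursors of DNA, had 466, 425 and 380 CPM in ZI050, against 17.0 to 47.0 CPM (median 34.6) in the other lines. It was set apart with a log2 difference of 3.75 ± 0.16 (adjusted p = 4.8e-09, edgeR), and its Raleigh lines averaged 28.3 to 79.7 CPM. The gene of the small subunit, RnrS, had 463, 388 and 455 CPM in ZI050 and 265 to 600 CPM in the others and was not called (0.06 ± 0.09, adjusted p = 0.626). Myd88, the adaptor of the Toll receptor in dorsoventral patterning and immunity, had 31.7, 41.7 and 29.0 CPM in ZI050, against 0.999 to 4.14 CPM (3.66 ± 0.22). CG42788 had 115, 96.7 and 130 CPM in ZI050, against 5.81 to 9.95 CPM (3.79 ± 0.15).

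**Figure D2:**
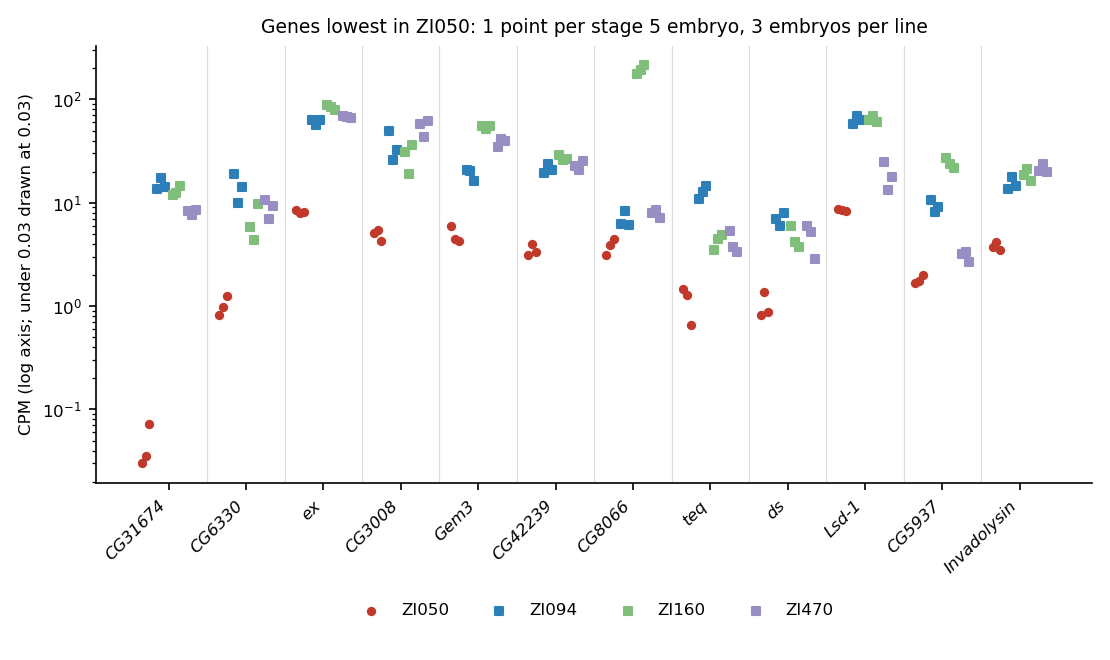
CPM (log axis) of the 12 genes with the largest differences below the other Zambia lines, with 1 point per stage 5 embryo and 3 embryos in each of ZI050 (red circles), ZI094, ZI160 and ZI470 (squares). The ZI050 points lie below all others by the rule that chose the genes, and CG8066 differs far more between ZI160 and the rest than between ZI050 and the rest.

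Among the genes lower in ZI050, CG31674 had 0, 0.0354 and 0.0723 CPM, which is 3 counts over the 3 embryos, against 7.66 to 17.3 CPM (median 12.4) in the other lines. The ratio of the counts was 351 (95% exact counting interval 120 to 1702, counting error only), and this was the only gene that was off in ZI050 (at most 3 counts in any embryo) and at 5 CPM or more in every other Zambia embryo. ex, an upstream regulator of the Hippo growth pathway, had 8.54, 8.03 and 8.06 CPM in ZI050, against 56.7 to 87.5 CPM (median 68.3). It was as high in the Raleigh lines, at 55.0 to 101 CPM, and its log2 difference was −3.10 ± 0.08 (adjusted p = 3.32e-11, edgeR). ds, a large cadherin that acts with Fat in the same pathway, had 0.814, 1.38 and 0.868 CPM in ZI050, against 2.89 to 8.01 CPM (median 5.92), with −2.38 ± 0.28.

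Gem3, a helicase of the SMN complex that assembles splicing particles, had 5.93, 4.49 and 4.30 CPM in ZI050, against 16.3 to 55.1 CPM (median 39.7). At stage 2 its RNA was at 167 CPM in ZI050 and 144 CPM in the others and was called slightly higher (0.22, adjusted p = 0.00747), whereas at stage 5 it was lower by −2.79 ± 0.13. CG3008 had 5.12, 5.48 and 4.30 CPM in ZI050, against 19.1 to 61.5 CPM, while at stage 2 it averaged 66.7 CPM in ZI050 and 71.5 CPM in the others and was not called (adjusted p = 0.123, edgeR).

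Lsd-1, a perilipin of lipid droplets, had 8.68, 8.45 and 8.32 CPM in ZI050 and 13.2 to 69.8 CPM (median 60.4) in the others, ZI470 being nearest. At stage 2 the gap was wider, with 0.311 CPM in ZI050 and 31.1 CPM in the others (−6.38, adjusted p = 1.78e-05). The Raleigh lines, at 8.17 to 17.8 CPM, were close to ZI050 at stage 5. Invadolysin, a metalloprotease gene, had 3.73, 4.14 and 3.47 CPM in ZI050 and 13.6 to 23.5 CPM in the others, and CG42239 had 3.15, 4.03 and 3.36 CPM in ZI050 and 19.5 to 28.8 CPM in the others. Both were also called lower at stage 2, by −3.02 and −2.83. CG6330, teq and CG5937 were lower by −3.21, −2.42 and −2.29. CG8066 had 3.12 to 4.48 CPM in ZI050, 6.13 to 8.56 CPM in ZI094 and ZI470 and 178 to 213 CPM in ZI160, so its log2 difference of −2.52 rests in part on ZI160.

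Neighbouring genes were next examined, since 71 of the 501 set-apart genes (14.2%) lay in 27 runs of tested genes that follow each other on a chromosome and differ in the same direction. In the other lines this share was 12.4% (ZI094), 19.6% (ZI160) and 8.51% (ZI470), so the share itself is not particular to ZI050. The longest runs of the other lines held 4 (ZI094), 9 (ZI160) and 2 (ZI470) genes. The longest run of ZI050 was 7 genes on 2L (1351728 to 1369050 in BDGP6, 17323 bases), all higher in ZI050: CG5556, CG5561, CG31924, CG5565, CG31659, NLaz, which encodes a lipocalin, and CG14346. The first 6 lie on the minus strand and CG14346 on the plus strand.

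**Figure D3:**
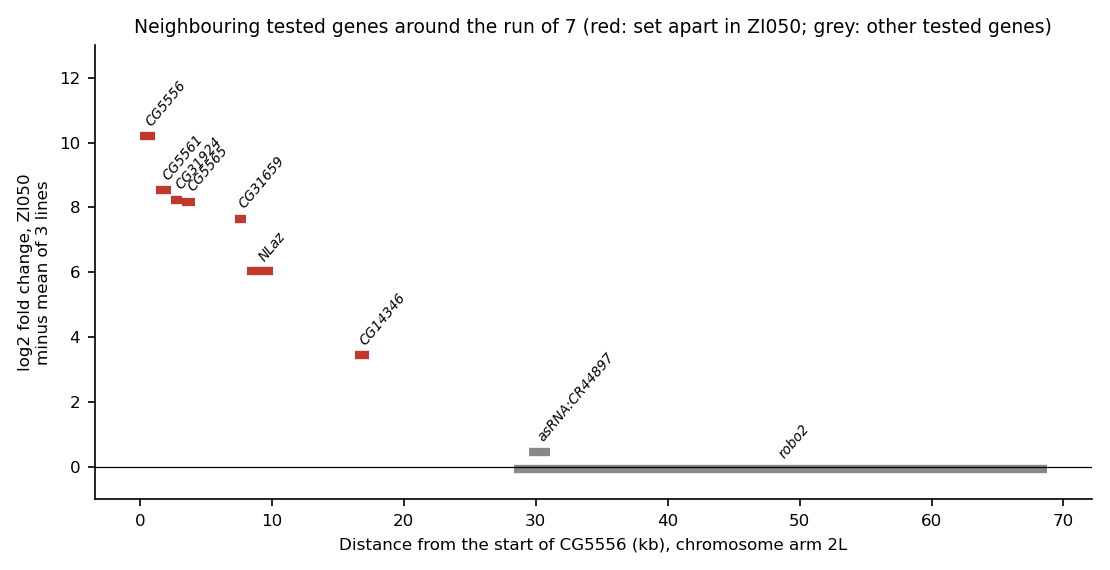
log2 difference, ZI050 minus the mean of the other 3 Zambia lines, against the distance in kb from the start of CG5556, for the tested genes of the run (red) and those within 30 kb of it (grey); the length of a bar is the length of the gene. The difference falls from 10.21 at CG5556 to 3.44 at CG14346, and robo2, next on the right, is at −0.06, but the fitted values of the genes with few or no counts in the other lines depend on the prior count and are no bounds.

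CG5556 had 4.37, 6.54 and 4.84 CPM in ZI050 and no count in the 9 other embryos, which makes it at least 49.0-fold higher against a floor of 3 counts per library. CG5561 had 4.54, 5.13 and 4.45 CPM in ZI050 and 3 counts over all 9 others (ratio 386, 95% exact counting interval 131 to 1880). NLaz had 2.78, 4.14 and 4.23 CPM in ZI050, against 0 to 0.302 CPM. CG14346, at the end of the run, had 2.44, 2.62 and 2.17 CPM in ZI050 and 0 to 0.459 CPM in the others. The other 3 genes were at 1.32 to 3.61 CPM in the ZI050 embryos and at or under 0.116 CPM in all others. In the Raleigh lines the first 6 genes stayed at or under 0.0979 CPM, and CG14346 averaged 0.188 to 1.78 CPM. None of the 7 reached the filter at stage 2. robo2, the receptor gene that follows on the right, had a mean of 496 CPM in ZI050 and 520 CPM in the others and was not called (adjusted p = 0.638), and the annotated genes within 30 kb on the left had at most 1 count over the 3 ZI050 embryos. CG5561 to CG5565 overlap by a few bases at their ends, so reads there may be shared.

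There were 4 runs of 4 genes, of which 3 are described. On 3R (11975156 to 11984541) CG10005, lncRNA:CR44135, CG18547 and CG3397 were higher in ZI050. CG18547 had 42.1, 44.4 and 35.9 CPM in ZI050 and 1.23 to 13.5 CPM in the others, and CG3397 had 19.9, 16.2 and 13.3 CPM in ZI050 and 0 to 7.25 CPM in the others. On 2L (20426199 to 20459075) CG31688, CG31683, CG31687 and CG18858 were higher, CG31687 with 75.8, 45.8 and 50.4 CPM in ZI050 and 19.3 to 24.3 CPM in the others. The Raleigh lines averaged 47.6 to 77.6 CPM for CG31687. CG31688 and CG31683 overlap at their ends on opposite strands, as do CG31687 and CG18858. Reads there may be shared, so the members of this run are not independent measurements. On 3R (27157948 to 27165575) grass, CG5909, ppk31 and CG34293 were lower, of which ppk31 and CG34293 overlap in the same way. grass, a serine protease of the Toll pathway, had 0, 0.0707 and 0.0362 CPM in ZI050 and 0.686 to 2.60 CPM in the others, and CG5909 had 0 to 0.136 CPM in ZI050 and 1.16 to 3.57 CPM in the others. Members of these runs outside the naming rule were chosen after their values were seen.

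By chromosome arm, 6.84% of the tested genes on 3L and 6.17% on 2L were set apart, 5.26% on 3R, 4.98% on 2R and 3.75% on X. None of the 88 tested genes on chromosome 4 was set apart, while 12 of them were called (13.6%) and 33 had an unadjusted p under 0.05 for the mean contrast. Over all genes tested 5.35% were set apart and 23.7% called, and 4515 of 9371 had an unadjusted p under 0.05. Genes whose RNA was above 1 CPM at stage 2 in some but not all Zambia lines were set apart in 9.51% of 431 cases. The share was 5.36% of 6394 for genes above that level in all 4 lines and 4.60% of 2546 for genes above it in none (zygotic only). Genes enter the first class because stage 2 levels of the lines, ZI050 included, fall on both sides of the limit. Its higher share is therefore in part built in.

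Gene groups of the blastoderm were then compared. The plot of calls by gene list sets each list beside the shares over all genes tested.

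**Figure D4:**
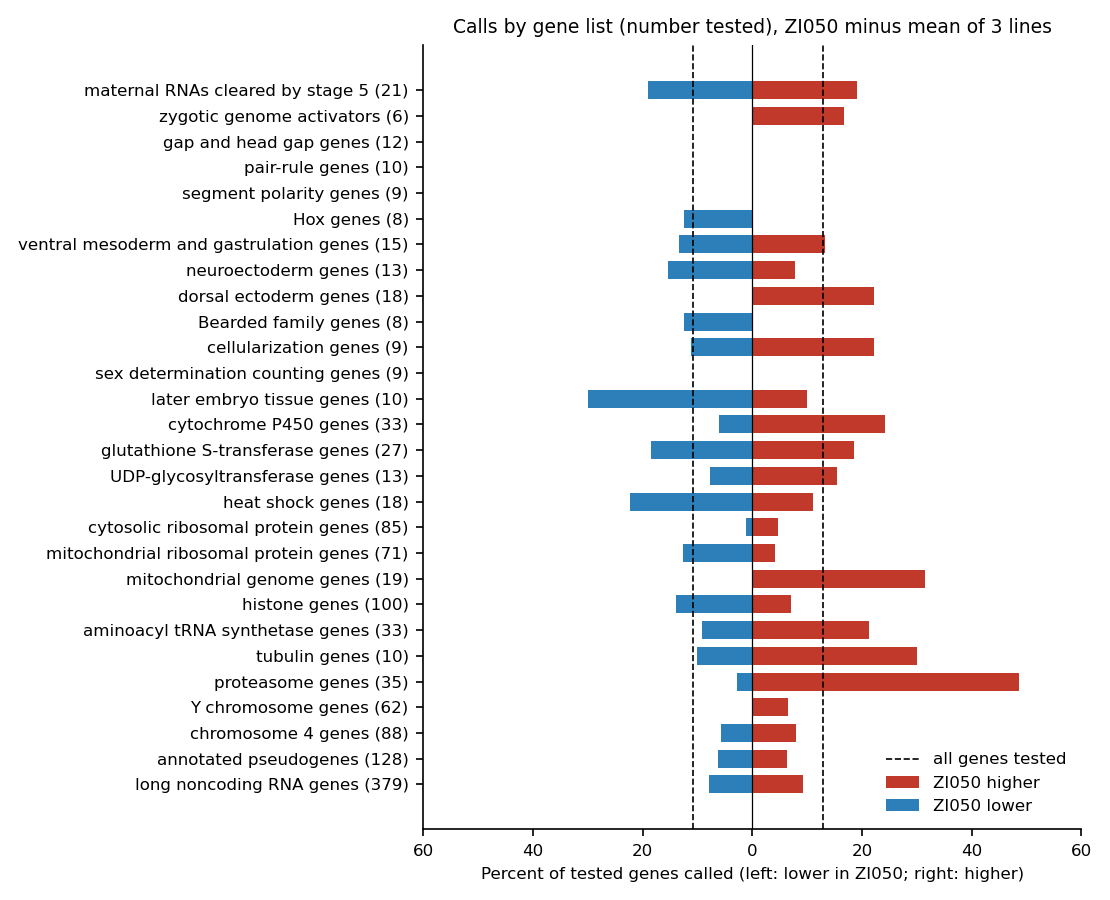
Percent of the tested genes of each list that were called higher (red, right) or lower (blue, left) in ZI050 than the mean of the other 3 Zambia lines, with the number tested in brackets; dashed lines are the shares over all genes tested, 12.8% higher and 10.9% lower. The proteasome list reaches 48.6% higher, and the gap, pair-rule, segment polarity and sex counting lists have no bar.

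The genes that lay out the body axis showed few calls. None of 12 gap and head gap genes, 10 pair-rule genes, 9 segment polarity genes or 9 genes that count the X chromosomes was called by edgeR (3, 3, 2 and 4 had an unadjusted p under 0.05, and DESeq2's Wald test called 1, 0, 1 and 3). Leaving out line ZI094 changed this, and edgeR then called 1 higher and 1 lower of the gap genes and 3 lower in each of the other 3 lists. ftz differed by 0.00 ± 0.06 on the log2 scale. The gap gene Kr had 259, 265 and 249 CPM in ZI050, against 182 to 247 CPM (median 214) in the others, with 0.28 ± 0.08 (adjusted p = 0.0138 by edgeR). Its ZI050 embryos were all above the others, and the difference passed under DESeq2 (adjusted p = 0.00529), with a range of 0.00238 to 0.0705 over the 22 alternatives that kept embryos apart. prd had 261 to 284 CPM in ZI050 and 236 to 349 CPM in the others. zld, the activator of the zygotic genome, had 1505, 1406 and 1374 CPM in ZI050 and 996 to 1506 CPM in the others, and opa 687 to 703 CPM in ZI050 and 605 to 759 CPM in the others. Neither passed the test.

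Among the 8 Hox genes, which set the identity of segments, Antp alone was called by edgeR (4 had an unadjusted p under 0.05, and DESeq2's Wald test called 2). The shares over all genes for these 2 counts are given above. Without line ZI094 2 were called lower (11.9% of all genes), and without line ZI160 2 higher and 1 lower (11.9% and 11.1%). Antp had 12.7, 10.5 and 11.6 CPM in ZI050, against 24.7 to 49.7 CPM (median 42.5) in the others, a log2 difference of −1.76 ± 0.12 (adjusted p = 4.54e-07, edgeR). lncRNA:CR43252, which lies within the Antp span, was lower too (0.181 to 0.495 CPM in ZI050 and 1.05 to 2.34 CPM in the others). Reads may be shared between these 2 genes, so they are not independent measurements. Dfd, the most abundant other Hox gene, had 35.7 to 38.7 CPM in ZI050 and 27.2 to 52.1 CPM in the others. The Raleigh lines averaged 16.2 to 49.8 CPM of Antp.

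sca, a secreted protein of early neurogenesis, had 51.3, 105 and 104 CPM in ZI050, against 222 to 384 CPM (median 341) in the others (−1.89 ± 0.21, adjusted p = 2.67e-05, edgeR). The antisense gene asRNA:CR45137, which lies on the other strand within sca (2R, 12783611 to 12799259) and was picked after its values were seen, moved the other way, with 92.6, 47.5 and 48.3 CPM in ZI050 and 4.20 to 11.0 CPM in the others (3.13 ± 0.19). ZI050 replicate 1 was lowest for sca and highest for the antisense gene among the 3 ZI050 embryos. The libraries were stranded, but the strand setting of the counting is not given in the sources used here, so how reads were divided between the 2 genes is uncertain. Among the other neuroectoderm genes ths was lower (−0.46) and vnd higher (0.28). Without line ZI094 the list had 5 lower and none higher.

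BobA, a Notch pathway inhibitor of the Bearded family, had 104, 94.7 and 110 CPM in ZI050, against 136 to 240 CPM (median 188), while Tom of the same family had 575 to 579 CPM in ZI050 and 443 to 766 CPM in the others. gcm, the glial determinant, had 10.1, 13.3 and 13.4 CPM in ZI050 and 14.5 to 35.6 CPM in the others. BobA was called and set apart at −0.79 ± 0.09 and gcm at −1.02 ± 0.14. Of 18 dorsal ectoderm genes 4 were called, all higher and none set apart: zen, tsg, tld and Doc1 (0.73, 0.61, 0.40 and 0.31). The list had 2 calls without line ZI094 or without ZI050 replicate 2. tld was no longer called without line ZI094 (0.25, adjusted p = 0.018 by edgeR; range over 22 alternatives 2.27e-06 to 0.139). zen, which specifies the amnioserosa, had 60.0, 57.9 and 49.0 CPM in ZI050 and 25.6 to 41.8 CPM in the others. Of 15 ventral mesoderm and gastrulation genes 2 were higher (htl and Ilp4) and 2 lower (T48 and Traf4). Each is 13.3%, near the 12.8% and 10.9% of all genes. The list had 1 or 2 calls without 1 of the ZI050 embryos. Its member twi had 282 to 302 CPM in ZI050 and 276 to 348 CPM in the others. dunk, a cellularization gene, had 72.5, 91.0 and 59.0 CPM in ZI050 and 7.51 to 86.4 CPM in the others, so ZI050 and ZI470 overlap there. Tollo, a receptor of axis elongation, was called lower (−0.38 ± 0.07, adjusted p = 0.00151) but not without ZI050 replicate 2 (−0.36, adjusted p = 0.0116 by edgeR) or without line ZI470 (−0.19, adjusted p = 0.0282). Over 22 alternatives its adjusted p was 2.81e-05 to 0.160.

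Of 21 tested maternal RNAs that are cleared by stage 5, 4 were called higher (BicD, png, tor and tud) and 4 lower (exu, twe, piwi and aub), and none was set apart by edgeR. The calls fell to 1 higher and none lower without ZI050 replicate 1, 3 and 1 without replicate 2, and 2 and none without replicate 3. exu, which acts in localizing bcd RNA, had 3.11 to 3.42 CPM in ZI050 and 3.57 to 11.1 CPM in the others. tor, the receptor of the terminal system, had 31.0 to 33.7 CPM in ZI050 and 11.9 to 37.0 CPM in the others. Of the follicle cell and yolk protein genes, which mark maternal tissue, 2 were tested and none was called, with a summed level of 1.13 to 1.52 CPM in ZI050 and 1.09 to 5.28 CPM in the others. Markers of later embryonic tissues, 10 tested, summed to 419 to 477 CPM in ZI050 and 461 to 554 CPM in the others, and 1 was called higher (nSyb) and 3 lower (Hml, vkg and gcm).

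The proteasome, which degrades ubiquitin-tagged proteins, was the list with the largest share of calls in the fit of all 12 embryos, but not in each alternative. Of its 35 tested genes 17 were called higher and 1 (Rpn5) lower in ZI050, with a median log2 difference of 0.25 against −0.00 over all genes tested. Both the catalytic core (Prosalpha and Prosbeta genes) and the regulatory particle (Rpt and Rpn genes) were among the 17. Rpt3, an ATPase of the regulatory particle, had 221, 191 and 176 CPM in ZI050, against 59.8 to 94.5 CPM (median 77.6) in the others, with 1.36 ± 0.08 (adjusted p = 9.33e-08, edgeR). Rpn6 had 455, 375 and 360 CPM in ZI050 and 211 to 282 CPM in the others (0.70 ± 0.08), and Prosbeta3 328, 328 and 303 CPM in ZI050 and 209 to 271 CPM in the others (0.41 ± 0.07). These 3 and Prosbeta2R2, a low-level paralog with 2.71, 1.38 and 1.30 CPM in ZI050 and 0.402 to 0.856 CPM in the others, were set apart. The remaining called members, such as Rpt2 (0.84) and Prosalpha3 (0.58), were not set apart from every line. Replicate 1 was the highest of the ZI050 embryos for Rpt3, Rpn6 and Rpt2. Without ZI050 replicate 1 the list had 7 genes called higher, when 7.63% of all genes were. Without ZI050 replicate 2 it had 9 (7.81% of all genes), and without ZI050 replicate 3 it had 15 (8.19%). Without line ZI094 it had 8. Prosbeta2R2 was no longer called without ZI050 replicate 1 (1.17, adjusted p = 0.0158 by edgeR), the highest over its 21 alternatives, which began at 4.15e-05.

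Hsc70-3, the chaperone of the endoplasmic reticulum, had 967, 707 and 861 CPM in ZI050, against 167 to 386 CPM (median 280) in the other Zambia lines and 428 to 713 CPM as averages of the Raleigh lines. The log2 difference was 1.55 ± 0.13 (adjusted p = 2.14e-06, edgeR), and at stage 2 the gene averaged 1507 CPM in ZI050 and 1426 CPM in the others and was not called (adjusted p = 0.208). Hsp70Aa, which is induced by heat, had 28.2, 20.3 and 24.2 CPM in ZI050, 15.2 to 84.4 CPM in ZI094 and ZI160 and 312 to 1283 CPM in ZI470. Its call as lower in ZI050 therefore goes with ZI470, and it was not set apart. Hsp70Ab, a near-identical copy, followed it and shares its reads. Hsp83 and Hsp60A were also called lower and Hsc70-4 higher among the 18 tested heat shock genes. Hsp83 averaged 208 CPM in ZI050, against 299 CPM in ZI094, 263 CPM in ZI160 and 1013 CPM in ZI470. Without line ZI470 no heat shock gene was called lower and 2 were called higher, and without line ZI094 10 were called lower. In these 2 fits 11.8% and 11.9% of all genes were called lower.

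Among enzymes that detoxify foreign compounds, 8 of 33 cytochrome P450 genes were called higher and 2 lower (median 0.15, and −0.02 without line ZI094). Besides Cyp12c1, the genes Cyp12d1-d, Cyp6d5 and Cyp312a1 were set apart above the other lines and Cyp6a13 and Cyp6d4 below them. Cyp12d1-d had 62.9, 67.3 and 66.2 CPM in ZI050, 40.5 to 51.0 CPM in ZI160 and 3.14 to 5.25 CPM in ZI094 and ZI470. Its near-identical copy Cyp12d1-p had 74.3 to 77.7 CPM in ZI050 and 4.04 to 70.2 CPM in the others without being set apart, and reads may have been divided between the copies. Cyp6d5 had 18.6, 21.5 and 22.3 CPM in ZI050 and 1.54 to 13.4 CPM in the others. Cyp6a13 had 0 to 0.102 CPM in ZI050 and 0.476 to 6.61 CPM in the others.

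Of 27 glutathione S-transferase genes 5 were called higher and 5 lower. Their median of 0.22 was 0.04 without ZI050 replicate 1 and 0.05 without replicate 2. GstE9 had 6.88, 6.72 and 4.63 CPM in ZI050 and 0.886 to 2.19 CPM in the others, and GstE7 27.9, 26.4 and 23.8 CPM in ZI050 and 10.5 to 19.7 CPM in the others. GstT2 was higher as well (1.53 ± 0.24). GstO3 had 2 counts over the ZI050 embryos and 130 over the others (ratio 22.6, 95% exact counting interval 6.12 to 188), and it turned round between the stages: at stage 2 it averaged 2.62 CPM in ZI050 and 0.317 CPM in the others. Among the UDP-glycosyltransferases Ugt37C2 was higher (2.93 ± 0.36) and Ugt49B1 lower (−1.80 ± 0.34), both near 1 CPM, and Ugt49B1 was not called without ZI050 replicate 1 (−1.54, adjusted p = 0.0125 by edgeR), the highest over its 21 alternatives, which began at 0.000274.

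Genes of protein synthesis were mixed. Among 33 aminoacyl tRNA synthetases, which charge tRNAs with amino acids, 7 were called higher and 3 lower (median 0.13). MetRS, the cytosolic enzyme for methionine, had 22.0, 21.9 and 22.9 CPM in ZI050, against 2.80 to 9.30 CPM (median 3.42) in the others (2.31 ± 0.10, adjusted p = 5.79e-09, edgeR), after 191 CPM in ZI050 and 188 CPM in the others at stage 2. AsnRS had 48.3, 44.2 and 48.9 CPM in ZI050 and 19.2 to 36.7 CPM in the others, and CysRS-m 2.39 to 3.50 CPM in ZI050 and 3.78 to 8.08 CPM in the others. Of 85 cytosolic ribosomal protein genes 4 were higher and 1 lower, with RpS9 set apart (0.27 ± 0.04). Without line ZI470 17 of them were called higher, when 13.8% of all genes were. Of 71 mitochondrial ribosomal protein genes 3 were higher (4.23%) and 9 lower (12.7%), against 12.8% and 10.9% of all genes. Without 1 of the ZI050 embryos 1 was higher and 4 to 6 lower. The members mRpL54, mRpL30 and mRpL12 were set apart below the other lines (−1.28, −1.02 and −0.74). mRpL54 had 10.1, 8.31 and 8.64 CPM in ZI050 and 15.5 to 28.6 CPM in the others.

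Of 19 tested genes of the mitochondrial genome 6 were called, all higher and all encoding subunits of respiratory complex I (mt:ND1, mt:ND2, mt:ND4, mt:ND4L, mt:ND5 and mt:ND6, by 0.57 to 0.67). mt:ND1 had 631, 659 and 537 CPM in ZI050, against 323 to 471 CPM, and with mt:ND2 was set apart. The count fell to 3 without ZI050 replicate 2 and to 2 without line ZI094.

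Most histone genes lie as repeated copies in a cluster on 2L. The libraries were made by poly-A selection, so the counts cover only the histone RNA that it caught. Of the 100 tested histone genes 14 were called lower, 12 of them His1 copies, and 7 higher. These are 14% and 7%, against 10.9% and 12.8% of all genes. His1:CG33807 had 14.1, 14.6 and 14.7 CPM in ZI050, against 17.9 to 58.6 CPM (median 40.4), with −1.36 ± 0.15, and a like −1.34 at stage 2. The copies are nearly identical, so their reads cannot be assigned to a copy with certainty and they are not independent measurements. The 7 higher ones were 5 His3 copies and 2 His1 copies, and the median over the list was −0.31. The split moved with the lines compared: without line ZI094 it was 2 higher and 28 lower, without line ZI470 22 higher and 13 lower, and without 1 of the ZI050 embryos 2 higher and 13 or 14 lower. Of 10 tubulin genes alphaTub84B was set apart besides gammaTub37C, with 5265 to 5352 CPM in ZI050 and 3611 to 4692 CPM in the others (0.33 ± 0.03).

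The stage 2 embryos, which are other individuals of the same lines, showed which differences were already there in the maternal RNA. At stage 2 538 of 7242 tested genes were called (7.43%), 287 higher (3.96%) and 251 lower (3.47%), and 104 (1.44%) were set apart, 33 higher (0.456%) and 71 lower (0.98%). Of the 254 genes set apart above the other lines at stage 5, 199 were tested at stage 2, where 32 were called higher and 7 lower. Of the 247 set apart below, 194 were tested, with 38 called lower and 2 higher. ZI470 replicate 1 of stage 2 widened the spread of its line: without it 1329 genes were called at stage 2, and 66 and 51 of the set-apart genes were called the same way (an alternative added after the data were seen). Leaving out a ZI050 embryo of stage 2 gave 166, 248 or 180 calls, and leaving out ZI094 replicate 2 or 3 gave 353 or 349.

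**Figure D5:**
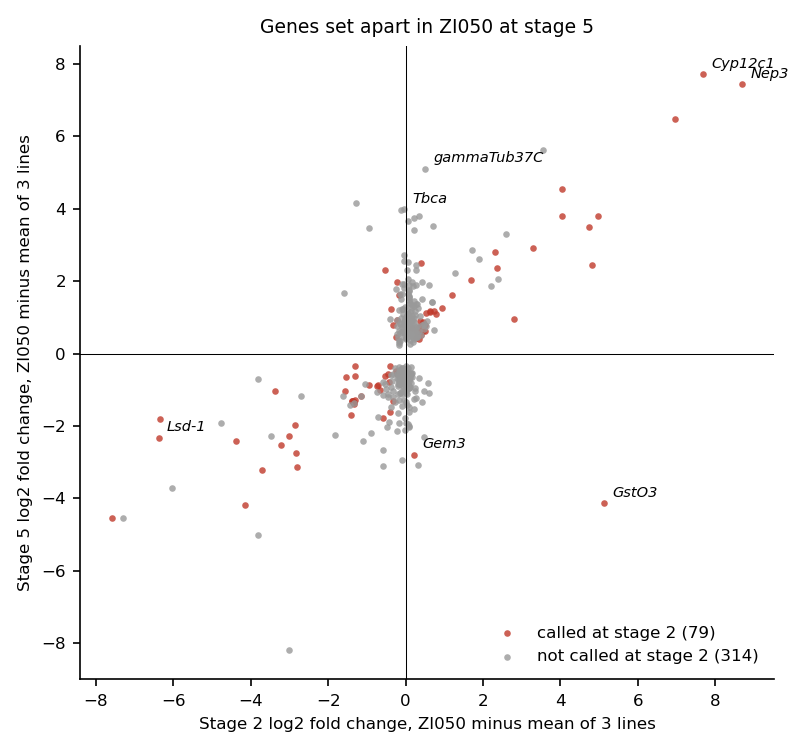
log2 difference, ZI050 minus the mean of the other 3 Zambia lines, at stage 5 (vertical axis) against stage 2 (horizontal axis) for the 393 set-apart genes tested at both stages; red points were called at stage 2 (79 genes) and grey points were not (314 genes). Many grey points form a vertical band near 0 on the stage 2 axis, which holds Tbca (−0.05), gammaTub37C is just to its right (0.50), and GstO3 is alone at the lower right.

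The change of the ZI050 difference between the stages was tested in 1 fit of all 24 Zambia embryos, where 1029 of 9563 genes were called (10.8%), 550 upward (5.75%) and 479 downward (5.01%) in ZI050. They included 133 of the 254 genes set apart above and 121 of the 247 set apart below the other lines, with changes in either direction counted. The change contains the same stage 5 difference that set these genes apart, so a share above that of all genes is built in. The 3 kinds of genes that follow were told apart among those of at least 4-fold at stage 5, by limits chosen after the values were seen. Of the 76 higher ones, 39 were too low for the test at stage 2. A further 13 were called higher at both stages, among them Cyp12c1, Nep3, pst, Sodh2 and Cyp12d1-d. Another 13 were not called at stage 2, with a log2 difference within 0.5 of 0, and changed between the stages, among them AOX3, Ahcy, CG3500, CG42788, Ercc1, IP3K1, MICAL-like, MetRS, Myd88, RnrL, Tbca and bgm. In this last set RnrL averaged 658 CPM in ZI050 and 567 CPM in the others at stage 2, against 424 CPM in ZI050 and 32.1 CPM in the others at stage 5. Of the 60 genes at least 4-fold lower, 31 were too low to be tested at stage 2, 9 were called lower at both stages and 7, among them CG3008 and mnd, were near 0 at stage 2 and changed.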

How the data were processed

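Single embryos were sequenced by the authors as stranded poly-A libraries with paired reads of 100 bp. Per the labels and the study's methods Cutadapt trimmed the reads, HISAT2 2.1.0 placed them on FlyBase release 6.18 and featureCounts gave counts per gene, and the deposited values are raw counts without normalization. The strand setting of the counting is not given in the sources used here. Of 17481 genes 17343 matched the BDGP6.54 annotation (release 115), and the 138 others held 1.13% of the counts. All 48 columns were mapped to a line and stage by name. No sequence is shown, since no genome was used here.

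Counts of the 12 Zambia embryos of stage 5 were filtered (filterByExpr by line, minimum count 10, minimum total 15), normalized by TMM and fitted with line as the factor in edgeR 4.0.16 (R 4.3.3; quasi-likelihood F-test; Benjamini-Hochberg adjusted p under 0.01). The contrast was ZI050 minus the mean of the log2 levels of the other 3 lines, so a log2 difference need not equal the ratio of mean CPM. Errors with log2 values are approximate SE, derived as the absolute log2 difference over the square root of the F statistic. They can be too small where a group has few counts. Stage 2 and the change between stages were fitted in the same way over 12 and 24 embryos. Raleigh levels are CPM from a TMM scaling over all 24 stage 5 embryos, and Zambia levels are from a separate scaling over the 12 Zambia embryos of a stage. Raleigh levels share no test with the values above. Library measures were compared by exact permutation (scipy 1.17.1, Python 3.11.15). Intervals of count ratios are exact and cover counting error only.

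Named genes were the 12 highest and the 12 lowest set-apart genes by log2 difference with a mean of at least 5 CPM and no overlap, the set-apart members of each gene list (up to 4), the 2 most abundant members of the developmental lists, genes on in 1 group and off in the other, and the longest run. Of these 1 gene, and 1 run of neighbouring genes, are not reported here. The comparison and the gene lists were chosen with earlier results of these data known, and the patterns for the P450 and histone lists were tightened after the matched symbols were read. Alternatives were an adjusted p under 0.05, DESeq2 1.42.0 (Wald test, size factors), other filters (none, or 5 CPM in a line), a replicate block, all 24 stage 5 embryos, leaving out embryos or lines, 2 groups without a term for line, and counts summed per line. The fit was run on simulated counts with the same dispersion for every gene, no differences among the other lines and changes of 4-fold in ZI050. The other lines differ from each other in the data, so that run checks the code and not the error rates here. Embryos were checked for duplicates by a chi-square statistic per degree of freedom, whose lowest value was 9.54. Same-numbered embryos did not deviate together once line means were removed: only 1 of 18 pairs at stage 5, and 2 of 18 at stage 2, reached a correlation above 0.1, and replicate numbers were treated as names.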

Additional observations from a re-analysis of the deposited data

Results flagged for a closer look

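The size of the ZI050 difference changed between stage 2 and stage 5 by an adjusted p under 0.01 (edgeR's quasi-likelihood test of the difference itself, stage 5 minus stage 2, log2 scale) for 21 of the named genes reported here. The change was upward in ZI050 for gammaTub37C (4.61), CG3603 (5.42), Tbca (4.05), MetRS (2.29), Hsc70-3 (1.48), GstT2 (1.44), Rpt3 (1.19), AsnRS (0.56) and Rpn6 (0.54). It was upward also for Lsd-1 (4.06) and Invadolysin (0.75), which were lower in ZI050 at both stages and less so at stage 5. The change was downward for CG31674 (−5.19), ds (−5.10, which rests on stage 2 levels of 0.150 CPM in ZI050 and 0.0560 CPM in the others, about the floor of 3 counts, where it was too low to be tested), Gem3 (−3.01), CG3008 (−2.84), ex (−2.50), egr (−1.36), mRpL54 (−1.11), mRpL30 (−1.03) and mRpL12 (−0.68). GstO3 had the largest fitted change (−9.25), being higher in ZI050 at stage 2 and lower at stage 5. The size of this value rests on the few counts of ZI050 at stage 5 and the low level of the other lines at stage 2, both given above. egr was called at stage 2 (1.38) and had 226 to 260 CPM in ZI050 and 184 to 316 CPM in the other lines at stage 5.

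For 7 named genes an embryo stood apart among the 9 of ZI094, ZI160 and ZI470, by the gap to its nearest neighbour over the whole range (above Dixon's limit at 95% for 9 values). The ratio was 0.573 for prd, 0.657 for Ugt37C2, 0.531 for mt:ND2, 0.540 for lncRNA:CR44135 and 0.509 for CG5561, and it was 1 for CG31924 and CG5565, where a single embryo had any count. Chance alone flags about 1 in 20 groups.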

How the results depend on the processing

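No called named gene changed sign. The count of 2224 genes called against the mean of the other lines was 3671 at an adjusted p under 0.05, and fell to 462 with 2 groups of 3 and 9 embryos and to 0 with counts summed per line (edgeR; 664 of 10952 genes at an unadjusted p under 0.05, lowest adjusted p 0.0504), where ZI050 is a single value against 3. The 501 set-apart genes became 957 at an adjusted p under 0.05, and 817, 804 and 965 without line ZI094, ZI160 or ZI470, where fewer lines have to differ. Leaving out 1 embryo at a time gave 1297 to 2234 called and 283 to 498 set-apart genes, the lowest without a ZI050 embryo, and 166 to 1329 called at stage 2, the highest without ZI470 replicate 1. DESeq2's Wald test called 2931 genes and set apart 715, of which 498 were among the 501. DESeq2's size factors, the other filters and the fit of all 24 stage 5 embryos stayed within 1.5 times, and the median of all genes moved by less than 0.1. With a replicate block the counts were 2023, 453, 467 at stage 2 and 980 for the change between stages; the numbers do not pair the embryos. Of the 89 named genes 3 lost the call without ZI050 replicate 1 (Prosbeta2R2, Ugt49B1 and CR6434), 1 without replicate 2 (Tollo), 2 in the fit of all 24 embryos (tld and Ugt49B1), 1 without line ZI094 (tld) and 1 without line ZI470 (Tollo), and 18 with 2 groups. Kr, prd, oc and sog gained a call without line ZI094. Medians of 26 lists moved by 0.00 to 0.01 with DESeq2's size factors and by −0.23 to 0.42 without a filter (most for the heat shock genes), and the tubulin median, near 0, changed sign in both and that of the later embryonic tissues with the size factors. Genes under about 0.1 CPM are limited by depth.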

Other observations

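A pair of genes on 2L differed by more than 8-fold between the ZI050 embryos themselves, by a limit (8-fold, with at least 10 CPM in the highest embryo) chosen after the data were seen. Ca-Ma2d, a calcium channel subunit gene, had 0.915 CPM in replicate 1 and 106 and 113 CPM in replicates 2 and 3, against 0.327 to 1.66 CPM in the other Zambia lines. Replicate 1 was thus at the level of the other lines, and the other 2 embryos far above it. Ca-Ma2d was still called and set apart (log2 difference 6.43, adjusted p = 3.72e-05 by edgeR). It therefore counts among the set-apart genes at least 4-fold higher in ZI050. sick had 4.88 CPM in replicate 1 and 47.9 and 53.4 CPM in replicates 2 and 3, against 57.9 to 138 CPM in the other lines, so that all 3 ZI050 embryos were below the rest by different amounts. The other lines had 5 (ZI094), 2 (ZI160) and 4 (ZI470) such genes.

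Alp4, an alkaline phosphatase gene, and AOX3, an aldehyde oxidase gene, were also set apart above the other Zambia lines. Alp4 had 28.8, 31.2 and 33.7 CPM in ZI050, against 1.13 to 5.64 CPM in the other Zambia lines and 0.193 to 2.24 CPM as averages of the Raleigh lines. AOX3 had 27.0, 12.8 and 17.1 CPM in ZI050 and 0.658 to 3.93 CPM in the other Zambia lines, but the Raleigh lines averaged 16.6 CPM or more. Both were picked after their values were seen.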
